A study of Arabidopsis thaliana with 30 samples.

Results

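The thermospermine and auxin vascular circuit was followed through 10 Arabidopsis thaliana genes chosen by locus: ACL5 (AT5G19530), BUD2 (AT5G18930), SAC51 (AT5G64340), SACL1 (AT5G09460), SACL2 (AT5G50010), SACL3 (AT1G29950), TMO5 (AT3G25710), T5L1 (AT1G68810), LHW (AT2G27230) and ATHB8 (AT4G32880). All 10 were listed among the 37686 genes of the expression tables, and 10 of 10 passed the filter on low values described below. The samples were the wounded regions of leaf blades of wild type Col-0. Seedlings were 12 d old, raised at 22 °C in days of 16 h light and 8 h dark (1/2 MS, sucrose at 1%), before the blades of the first leaf pair were severed where they join the petiole. Blades at detachment (T0) were compared with blades kept on B5 medium lacking sucrose in continuous light for 6, 12 or 24 h or 2, 3, 4 or 5 d, either without addition (mock) or with the polar auxin transport inhibitor NPA (N-1-naphthylphthalamic acid), whose dose the labels do not give. Each of the 15 groups held 2 libraries, 30 in all, and every plant was wild type. The labels do not state whether the 2 libraries of a group derive from different plants or plates, and the p-values therefore reflect only the variation among these libraries, which may be technical.

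The circuit sets how much xylem a vascular strand makes. Auxin activates the factor MONOPTEROS (MP), which switches on ATHB8, a class III homeodomain-leucine zipper (HD-ZIP III) gene of preprocambial cells, and TMO5. The basic helix-loop-helix (bHLH) proteins TMO5 and T5L1 act as dimers with the bHLH protein LHW, and these dimers promote local cytokinin synthesis, cell division and xylem identity. ACL5 encodes thermospermine synthase, which adds an aminopropyl group to spermidine, and BUD2 encodes an S-adenosylmethionine decarboxylase that supplies the donor of that group. Thermospermine raises the translation of the SAC51 family, bHLH genes whose mRNAs carry inhibitory upstream open reading frames, and SAC51-like proteins compete for LHW. ACL5 is itself a target of ATHB8 and of the LHW dimers, so the circuit closes as a negative feedback on xylem formation. RNA levels do not show the translational step, and no protein or polyamine was measured in the files used here.

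The 300 bases before the annotated start are printed for ATHB8, ACL5, TMO5 and T5L1, because these were the 4 genes whose NPA libraries lay below the mock libraries at every time (values below). The windows are chr4:15868651-15868950 on the minus strand for ATHB8, chr5:6591364-6591663 on the minus strand for ACL5, chr3:9369199-9369498 on the plus strand for TMO5 and chr1:25860794-25861093 on the plus strand for T5L1. They come from the RefSeq genome TAIR10.1 and read 5′ to 3′ toward the gene, and capitals mark auxin response element letters on either strand.
ATHB8: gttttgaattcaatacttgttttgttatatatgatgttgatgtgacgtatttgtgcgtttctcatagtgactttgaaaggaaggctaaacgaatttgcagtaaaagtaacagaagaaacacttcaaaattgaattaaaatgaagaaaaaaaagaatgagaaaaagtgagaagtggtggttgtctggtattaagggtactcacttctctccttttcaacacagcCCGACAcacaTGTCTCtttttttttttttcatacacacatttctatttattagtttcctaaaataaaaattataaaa
ACL5: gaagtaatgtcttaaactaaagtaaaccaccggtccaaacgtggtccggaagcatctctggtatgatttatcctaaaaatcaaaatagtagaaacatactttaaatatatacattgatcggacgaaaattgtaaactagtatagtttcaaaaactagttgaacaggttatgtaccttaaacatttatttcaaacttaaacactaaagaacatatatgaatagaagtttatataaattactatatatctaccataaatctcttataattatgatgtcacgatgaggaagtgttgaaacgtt
TMO5: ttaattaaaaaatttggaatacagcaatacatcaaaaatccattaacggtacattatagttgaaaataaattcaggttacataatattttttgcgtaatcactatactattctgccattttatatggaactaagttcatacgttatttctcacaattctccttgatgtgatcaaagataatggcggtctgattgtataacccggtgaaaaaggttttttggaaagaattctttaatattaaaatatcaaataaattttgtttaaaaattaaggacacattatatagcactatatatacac
T5L1: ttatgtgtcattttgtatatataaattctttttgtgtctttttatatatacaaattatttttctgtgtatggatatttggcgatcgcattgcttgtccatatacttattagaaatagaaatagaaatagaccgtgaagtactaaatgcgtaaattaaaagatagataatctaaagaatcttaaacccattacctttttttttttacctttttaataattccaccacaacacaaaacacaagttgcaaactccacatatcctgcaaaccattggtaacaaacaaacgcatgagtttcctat
The 3 motifs below were searched on both strands of this window in the 10 genes and in all 27443 promoters of the annotation: TGTCTC and TGTCGG (auxin response elements) and CACGTG (the G-box bound by many bHLH factors). TGTCTC occurred in the ATHB8 window alone among the 10 genes, 62 to 67 bases before the start, and in 13% of all promoters. TGTCGG, read on the opposite strand as the first capitals of the ATHB8 line, lay 72 to 77 bases before the start and was present in 4.91% of all promoters. CACGTG was in 0 of the 10 windows and 7.09% of all promoters. The 2 matches in the ATHB8 window did not overlap each other, and the matches describe letters, not binding.

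Values are TPM, the usual unit of relative transcript abundance, which correct for gene length and library total. Levels of different genes can thus be compared, and the sequencing depth is unknown. Between 17201 and 19288 genes reached 1 TPM in a library. Differences are on the log2(TPM + 1) scale with their standard error, which understates the change wherever a level is low, as for BUD2, SACL2 and ACL5 in NPA at 6 h. They come from limma fitted to 20654 genes with at least 1 TPM in at least 2 libraries, and a gene is said to have risen or fallen at an adjusted p (Benjamini-Hochberg over all tested genes) under 0.05. The 2 T0 libraries stood apart from each other: their log2 values correlated across genes with r of 0.945 against 0.983 to 0.995 in the other 14 groups, and the morning clock gene CCA1 was at 318 and 0.13 TPM while the evening gene ELF4 was at 0.11 and 94.1 TPM. Of the 10 genes, 7 were over 1.4-fold higher in the second T0 library and 0 were over 1.4-fold lower. Comparisons with T0 are therefore given with and without each of these libraries. The libraries of a group also differed in clock genes at 6, 12 and 24 h, in both conditions and with opposite numbering: CCA1 at 12 h was at 114 and 14.4 TPM in mock and at 8.45 and 136 TPM in NPA, and ELF4 at 6 h was at 124 and 42.2 TPM in mock and at 51.8 and 103 TPM in NPA. Of the clock genes CCA1, LHY, TOC1 and ELF4, 0 of 4 passed in NPA against mock at any of the 7 times. Their standard errors there were 1.05 (TOC1) to 1.95 (LHY), so this does not show that phase was alike in the 2 conditions. The part of the clock difference between libraries in the results was not tested.

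The leaf explants expressed the circuit throughout. In mock libraries SACL1 was the most abundant of the 10, with 56 to 79.8 TPM, followed in median by SAC51 with 35.6 to 64.7 TPM. SACL3, LHW, ACL5 and ATHB8 had mock medians of 32.4, 32.2, 28.6 and 22.3 TPM, with ranges that overlapped. TMO5 had a median of 14.4 TPM and T5L1 of 11.1 TPM. BUD2 and SACL2 were the lowest, with medians of 3.35 and 1.58 TPM. Expression of vascular genes was small beside that of mesophyll: 4 mesophyll genes (RBCS1A, CAB1, CA1 and RCA) summed to 29300 to 50500 TPM in mock. In such bulk samples fewer cells of a type and less RNA per cell cannot be told apart.

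**Figure D1:**
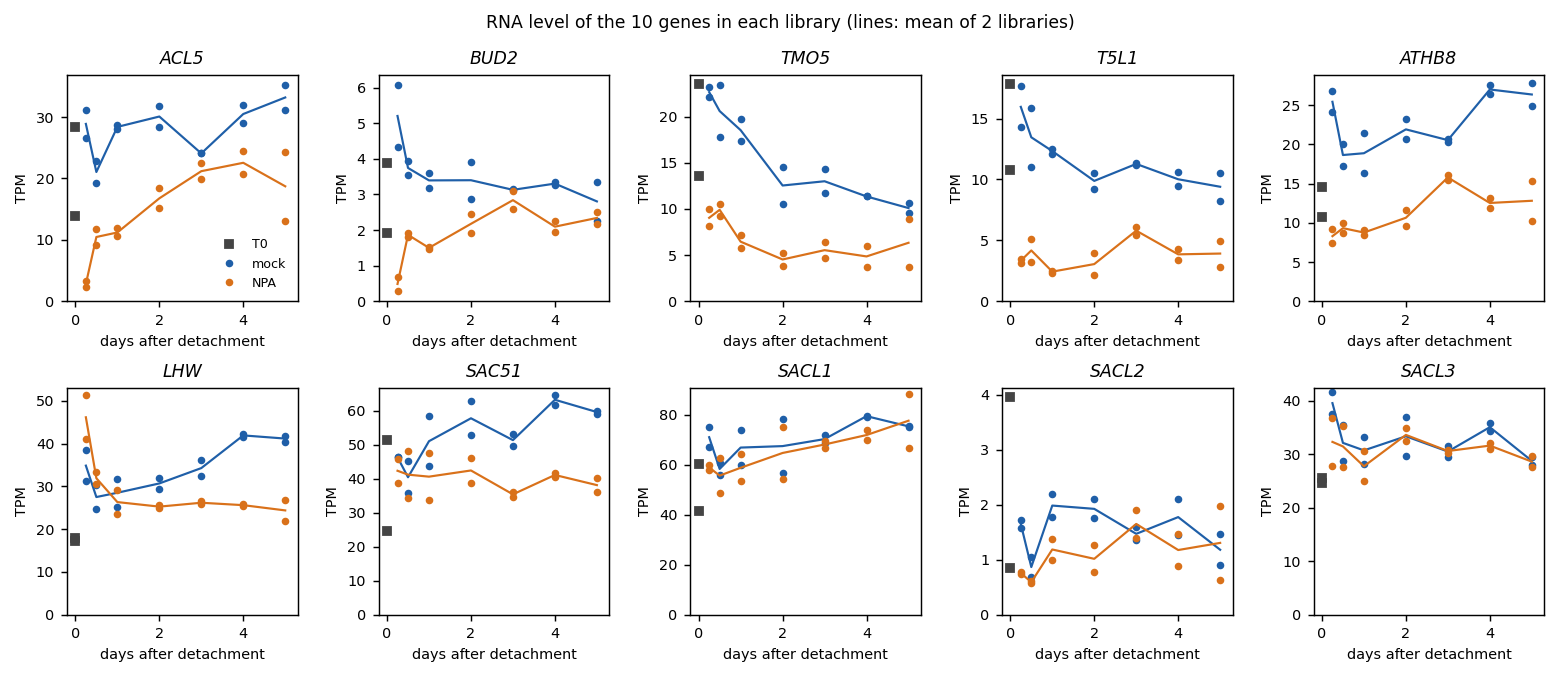
RNA level in TPM (vertical axes, linear, from 0) against days after detachment for each of the 10 genes, with every library as a point and lines joining the means of 2 libraries. Squares are T0, blue is mock and orange is NPA. ACL5 and BUD2 start near the floor in NPA at 6 h and approach mock by 3 d, while T5L1 and ATHB8 stay lower in NPA in every library.

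With NPA, 5 of the 10 genes fell at 6 h (ACL5, BUD2, T5L1, TMO5 and ATHB8), when only 0.683% of all tested genes fell. The count was 2 at 12 h (background 1.23%), 4 at 24 h (1.47%), 3 at 2 d (3.27%), 1 at 3 d (5.14%), 4 at 4 d (9.3%) and 4 at 5 d (15.1%). None of the 10 rose at any of these 7 times, when 0.881%, 0.852%, 0.421%, 0.421%, 0.6%, 0.605% and 2.04% of all genes rose. Their median log2 difference was -0.92 at 6 h, -0.27 at 3 d and -0.66 at 5 d, beside medians over all tested genes of -0.02, -0.12 and -0.11. Over the mean of the 7 differences 7 of 10 fell, with 30.6% of all genes falling. In T5L1 and ATHB8 all 14 NPA libraries lay below all 14 mock libraries, which was so for 0.416% of tested genes. In ACL5, TMO5, T5L1 and ATHB8 both NPA libraries lay below both mock libraries at each of the 7 times, against 3.29% of tested genes.

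ACL5, thermospermine synthase, had the largest difference of the 10 genes at 6 h, and passed at 3 of the 7 times. At T0 it was at 13.8 and 28.4 TPM in the 2 libraries. In mock the pairs were 26.6 and 31.2 TPM at 6 h, 19.2 and 22.9 at 12 h, 28.8 and 28 at 24 h, 28.4 and 31.8 at 2 d, 24.1 and 24.1 at 3 d, 29.1 and 31.9 at 4 d, and 31.1 and 35.3 at 5 d. In NPA they were 3.27 and 2.36 TPM at 6 h, 11.7 and 9.23 at 12 h, 11.8 and 10.6 at 24 h, 15.1 and 18.4 at 2 d, 22.5 and 19.9 at 3 d, 20.7 and 24.4 at 4 d, and 13.1 and 24.3 at 5 d. Mock stayed between 19.2 and 35.3 TPM, NPA was far lower at first and higher later, and the pairs never overlapped. The difference at 6 h was -2.98 ± 0.26 (SE, n = 2 per group, limma adjusted p = 3.01e-06), between mean levels of 28.9 TPM in mock and 2.82 TPM in NPA. It was -1.27 ± 0.26 at 24 h (adjusted p = 0.0137), -0.18 at 3 d (adjusted p = 0.817, 95% interval -0.73 to 0.37) and -0.85 at 5 d (adjusted p = 0.0317). The 24 h call ended without any 1 of its 4 libraries (adjusted p from 0.0739 to 0.122). The 5 d call ended under TMM factors (adjusted p = 0.0715) and without mock replicate 1, mock replicate 2 or NPA replicate 1 (adjusted p = 0.0686, 0.221 and 0.361). The difference itself varied between times (moderated F test, adjusted p = 0.00089), as it did for 3 of the 10 genes and 5.86% of all genes, and ACL5 rose 2.32 ± 0.26 between 6 h and 5 d in NPA (adjusted p = 3.27e-06) while mock moved by 0.20 (adjusted p = 0.596).

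BUD2, the decarboxylase partner of ACL5, followed at a far lower level, near the filter on low values. At T0 it was at 1.91 and 3.87 TPM. Mock held 4.33 and 6.08 TPM at 6 h, 3.93 and 3.56 at 12 h, 3.6 and 3.19 at 24 h, 2.88 and 3.92 at 2 d, 3.14 and 3.12 at 3 d, 3.34 and 3.27 at 4 d, and 2.25 and 3.36 at 5 d. NPA held 0.68 and 0.29 TPM at 6 h, 1.81 and 1.92 at 12 h, 1.52 and 1.48 at 24 h, 1.91 and 2.44 at 2 d, 3.09 and 2.59 at 3 d, 2.25 and 1.94 at 4 d, and 2.16 and 2.52 at 5 d. The pairs were apart at the first 6 times and overlapped at 5 d. BUD2 fell by 2.06 ± 0.21 at 6 h (adjusted p = 1.34e-05) and passed at no other single time, with -0.81 at 24 h (adjusted p = 0.0563). Its difference also varied between times (adjusted p = 0.00277), since BUD2 fell by 0.71 from 6 h to 5 d in mock (adjusted p = 0.0125) and rose by 1.18 in NPA (adjusted p = 0.000292). The fall in mock ended without mock 6 h replicate 2 or mock 5 d replicate 1 (adjusted p = 0.152 and 0.154). The ratio of ACL5 to BUD2 TPM was 5.63 ± 0.719 (SD, n = 2) in mock and 6.47 ± 2.35 in NPA at 6 h, and the difference was within the spread.

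In the bHLH genes that act with LHW both NPA libraries lay below both mock libraries at every time. T5L1 held in mock 14.3 and 17.6 TPM at 6 h, 11 and 15.9 at 12 h, 12.1 and 12.5 at 24 h, 10.6 and 9.21 at 2 d, 11.4 and 11.2 at 3 d, 10.6 and 9.43 at 4 d, and 8.24 and 10.6 at 5 d. In NPA it held 3.18 and 3.48 TPM at 6 h, 5.12 and 3.22 at 12 h, 2.35 and 2.51 at 24 h, 2.15 and 3.95 at 2 d, 6.12 and 5.47 at 3 d, 3.39 and 4.31 at 4 d, and 2.85 and 4.98 at 5 d. The highest NPA library (6.12 TPM) was below the lowest mock library (8.24 TPM), and the 2 T0 libraries held 10.8 and 17.8 TPM. T5L1 fell by 1.96 ± 0.26 at 6 h (adjusted p = 0.000189) and by 1.11 ± 0.26 at 5 d (adjusted p = 0.00561), and it passed at every time except 3 d (-0.86, adjusted p = 0.064). Its calls at 6 h and 24 h held without any 1 library, while those at 12 h, 2 d, 4 d and 5 d ended without mock 12 h replicate 2 (adjusted p = 0.0606), NPA 2 d replicate 1 (0.0626), mock 4 d replicate 1 (0.055) or NPA 4 d replicate 1 (0.0662), and mock 5 d replicate 2 (0.094) or NPA 5 d replicate 1 (0.0905). Its mean difference was -1.43 ± 0.10 (adjusted p = 4.05e-09), and a change of that difference over time was not detected (F test, adjusted p = 0.455).

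TMO5, first known as a direct target of MP in the embryo, declined in mock as well. Mock held 22.2 and 23.2 TPM at 6 h, 17.8 and 23.4 at 12 h, 17.4 and 19.7 at 24 h, 14.6 and 10.5 at 2 d, 14.3 and 11.7 at 3 d, 11.4 and 11.4 at 4 d, and 9.54 and 10.7 at 5 d, after 13.6 and 23.6 TPM at T0. NPA held 9.96 and 8.12 TPM at 6 h, 10.6 and 9.23 at 12 h, 7.15 and 5.76 at 24 h, 5.28 and 3.77 at 2 d, 6.38 and 4.69 at 3 d, 3.7 and 6.01 at 4 d, and 3.74 and 8.93 at 5 d. Both series went down and the NPA pair was the lower at every time. From 6 h to 5 d TMO5 fell by 1.09 in mock (adjusted p = 0.00754, and 0.0536 without mock 5 d replicate 1). The NPA difference was -1.24 ± 0.30 at 6 h (adjusted p = 0.0436), a call that 9 of 14 alternatives ended, and it was -1.39 at 24 h, -1.29 at 2 d, -1.11 at 3 d and -1.11 at 4 d (adjusted p from 0.0177 to 0.0347). It did not pass at 12 h (-0.98, adjusted p = 0.114) or at 5 d (-0.69, adjusted p = 0.129). Without 1 library these calls ended in turn: any of the 4 at 6 h (adjusted p from 0.139 to 0.312), any of the 4 at 24 h (0.0719 to 0.209), mock replicate 1 or NPA replicate 2 at 2 d (0.233 and 0.224), any of the 4 at 3 d (0.0812 to 0.278), and mock replicate 1, mock replicate 2 or NPA replicate 1 at 4 d (0.124, 0.106 and 0.268). The mean over times, -1.12 ± 0.11 (adjusted p = 5.09e-07), passed under every alternative run. The sum of TMO5 and T5L1 was 38.6 ± 3.1 TPM (SD, n = 2) in mock and 12.4 ± 1.09 in NPA at 6 h, and 19.5 ± 2.43 and 10.2 ± 5.18 TPM at 5 d.

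LHW, the shared dimer partner, moved differently from both. It was at 17.2 and 18 TPM at T0. In mock it held 31.2 and 38.5 TPM at 6 h, 30.3 and 24.7 at 12 h, 25.3 and 31.7 at 24 h, 32 and 29.3 at 2 d, 32.3 and 36.2 at 3 d, 42.2 and 41.6 at 4 d, and 40.5 and 41.9 at 5 d. In NPA it held 51.4 and 41 TPM at 6 h, 33.3 and 30.5 at 12 h, 29.1 and 23.5 at 24 h, 24.9 and 25.6 at 2 d, 25.9 and 26.5 at 3 d, 25.8 and 25.4 at 4 d, and 22 and 26.8 at 5 d. The NPA pair lay above the mock pair at 6 h and 12 h, overlapped it at 24 h and lay below it from 2 d on. At 6 h the difference of 0.39 did not pass (adjusted p = 0.377), while LHW fell by 0.69 ± 0.14 at 4 d (adjusted p = 0.00287) and by 0.74 ± 0.14 at 5 d (adjusted p = 0.0012). The difference varied between times (adjusted p = 0.00478). From 6 h to 5 d LHW fell by 0.89 in NPA (adjusted p = 0.000119) against a change of 0.24 in mock (adjusted p = 0.198). Its change in NPA over that interval was thus opposite in sign to those of ACL5 and BUD2.

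**Figure D2:**
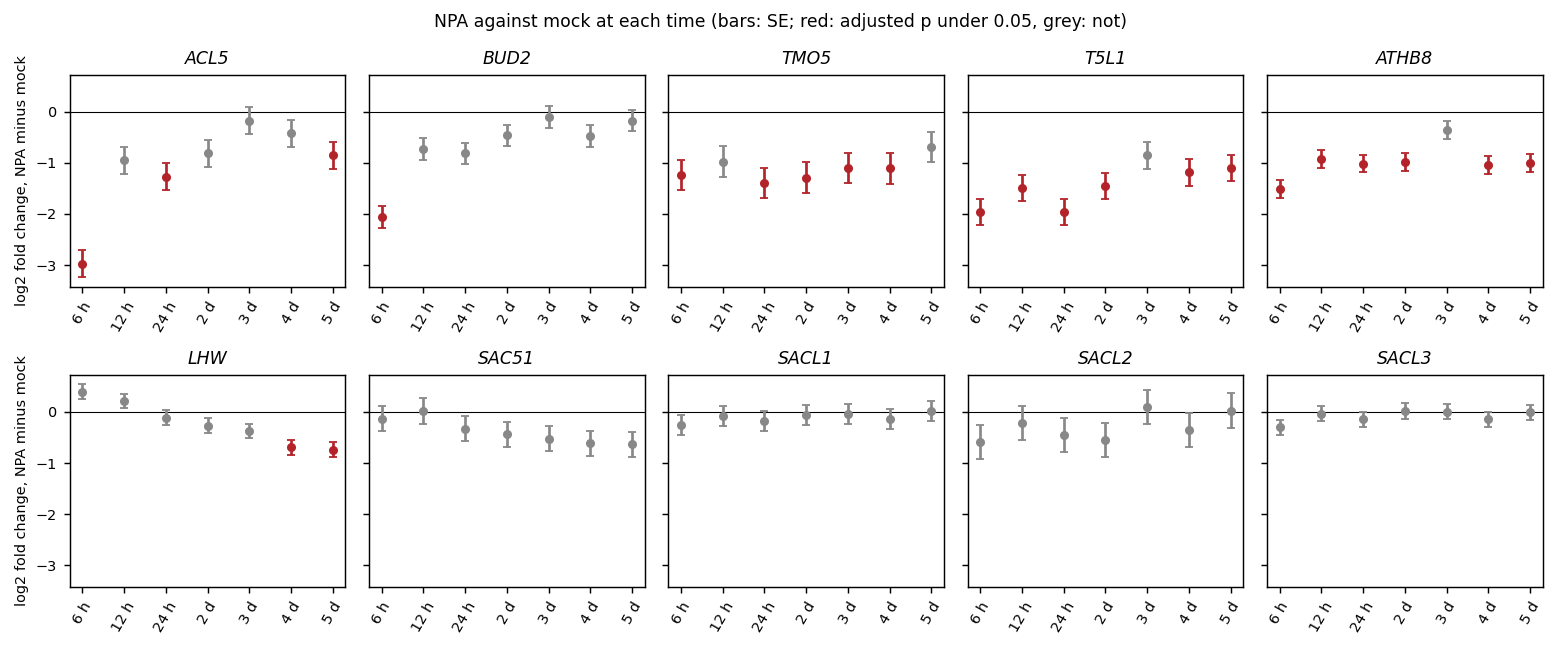
Log2 difference of NPA minus mock (vertical axes, log2(TPM + 1) scale, shared) at each of 7 times for the 10 genes, with bars of 1 standard error from limma. Red points have an adjusted p under 0.05 and grey points do not. ACL5 and BUD2 go from -2.98 and -2.06 at 6 h toward 0, T5L1 and ATHB8 stay between -1.96 and -0.36, and LHW passes from 0.39 to -0.74.

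In NPA the RNA of LHW exceeded the summed RNA of its partners at every time, in TPM. The ratio of LHW TPM to the summed TPM of TMO5 and T5L1 was 0.569 ± 0.191 (SD, n = 2) at T0. In mock it was 0.9 ± 0.0609 at 6 h, 1.38 ± 0.151 at 2 d and 2.13 ± 0.215 at 5 d. In NPA it was 3.72 ± 0.265 at 6 h, 3.34 ± 0.0259 at 2 d and 2.63 ± 0.994 at 5 d. The NPA pair was above the mock pair at the first 6 times and overlapped it at 5 d. The mock ratio was higher at 5 d than at 6 h in both libraries, and the NPA ratio was lower. Within the partner pair, TMO5 was 1.43 ± 0.168 times T5L1 in mock and 2.73 ± 0.565 times in NPA at 6 h, 1.15 ± 0.144 and 0.95 ± 0.131 times at 3 d, and 1.08 ± 0.106 and 1.55 ± 0.34 times at 5 d. NPA was the higher at 6 h and 5 d and the lower at 3 d. These ratios are of RNA and were not tested.

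**Figure D3:**
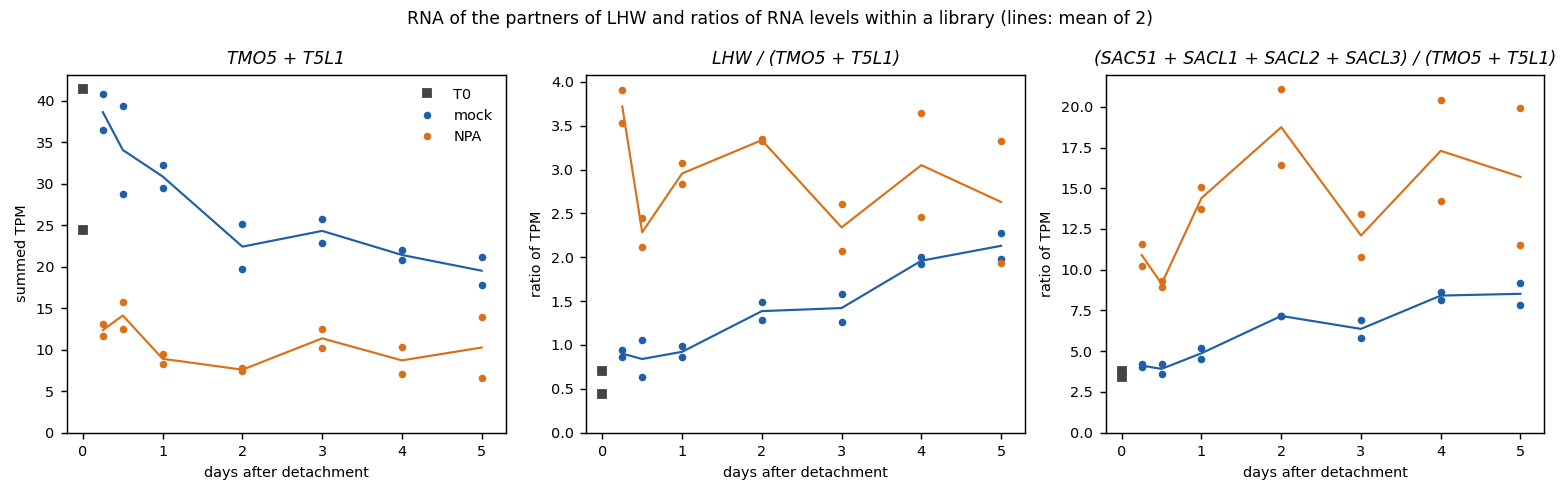
Summed TPM of TMO5 and T5L1 (left), ratio of LHW TPM to that sum (middle) and ratio of the summed TPM of the 4 SAC51 family genes to that sum (right) against days after detachment, on linear axes from 0. Points are libraries, lines join the means of 2, squares are T0, blue is mock and orange is NPA. At 6 h the LHW ratio averaged 0.9 in mock and 3.72 in NPA.

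The SAC51 family, whose proteins compete for LHW, changed little by comparison. SAC51 held in mock 46.4 and 46.2 TPM at 6 h and 59.2 and 60 TPM at 5 d. In NPA it held 38.8 and 45.8 TPM at 6 h and 36.1 and 40.1 TPM at 5 d, and over all 7 times it ranged from 35.6 to 64.7 TPM in mock and from 33.7 to 48.1 TPM in NPA. The pairs did not overlap at 6 h or from 2 d on, with NPA the lower. SAC51 passed at none of the 7 single times in NPA, the nearest being -0.63 at 5 d (adjusted p = 0.0901), and its mean difference of -0.38 ± 0.09 did pass (adjusted p = 0.00386). SACL1 ranged from 56 to 79.8 TPM in mock and from 48.8 to 88.5 TPM in NPA, with a mean difference of -0.11 ± 0.07 (adjusted p = 0.289). SACL3, a target of the LHW dimers, ranged from 28 to 41.6 TPM in mock and from 25 to 36.8 TPM in NPA, with a mean difference of -0.09 ± 0.06 (adjusted p = 0.255). At 6 h SACL3 was at 37.6 and 41.6 TPM in mock and 36.8 and 27.8 TPM in NPA, a difference of -0.30 whose 95% interval was -0.61 to 0.02. That interval excludes a fall of the size seen for T5L1 at the same time. SACL2 stayed at or under 2.2 TPM in both conditions, so little can be read from its mean difference of -0.29 ± 0.13 (adjusted p = 0.0796). Summed over the 4 genes, the family held 159 ± 8.41 TPM in mock and 134 ± 0.12 in NPA at 6 h (SD, n = 2). Per TPM of TMO5 and T5L1 this was 4.11 ± 0.112 in mock and 10.9 ± 0.95 in NPA.

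ATHB8, the HD-ZIP III gene among the 10, was lower with NPA in every library. At T0 it was at 10.8 and 14.5 TPM. In mock it held 26.8 and 24.1 TPM at 6 h, 17.2 and 20.1 at 12 h, 16.3 and 21.4 at 24 h, 20.6 and 23.2 at 2 d, 20.3 and 20.7 at 3 d, 27.6 and 26.4 at 4 d, and 24.8 and 27.9 at 5 d. In NPA it held 9.21 and 7.38 TPM at 6 h, 9.93 and 8.7 at 12 h, 9.11 and 8.4 at 24 h, 9.59 and 11.7 at 2 d, 16.1 and 15.4 at 3 d, 11.9 and 13.1 at 4 d, and 10.3 and 15.4 at 5 d. All mock libraries were above both T0 libraries, NPA libraries lay on both sides of them, and the nearest values of the 2 conditions were 16.1 and 16.3 TPM. ATHB8 fell by 1.51 ± 0.17 at 6 h (adjusted p = 4.54e-05) and by 1.01 ± 0.17 at 5 d (adjusted p = 0.00038), and passed at every time except 3 d (-0.36, adjusted p = 0.31). The calls at 6 h, 4 d and 5 d held without any 1 library, and those at 12 h, 24 h and 2 d ended without mock 12 h replicate 2 (adjusted p = 0.0718), mock 24 h replicate 2 (0.0961) and NPA 2 d replicate 1 (0.0522). Its mean difference was -0.98 ± 0.07 (adjusted p = 3.29e-09). A change of the difference over time did not pass (adjusted p = 0.174), although ATHB8 rose by 0.55 from 6 h to 5 d in NPA (adjusted p = 0.0183, and 0.161 without NPA 6 h replicate 2 or 0.278 without NPA 5 d replicate 2).

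Against T0, LHW was the gene with the steadiest rise after detachment. In mock it rose at all 7 times, by 0.94 ± 0.14 at 6 h (adjusted p = 9.69e-05), 0.61 at 12 h, 0.66 at 24 h, 0.77 at 2 d, 0.92 at 3 d, 1.21 at 4 d and 1.18 at 5 d, and every one of these calls held without either T0 library. ATHB8 also rose at all 7 times, by 0.96 at 6 h and 1.01 at 5 d (adjusted p = 0.000455 and 0.000101), and without the first T0 library its calls held at 6 h, 2 d, 4 d and 5 d. SACL3 rose by 0.64 at 6 h (adjusted p = 0.00329) and by 0.47 at 4 d (adjusted p = 0.0145), both also without either T0 library. Its rise of 0.39 at 2 d (adjusted p = 0.042) ended without the first T0 library (0.0936) and without the second (0.0999). Of the 10 genes 4, 2, 2, 4, 2, 5 and 5 rose from 6 h to 5 d, and 1 fell at 5 d. The background of rising genes was 26.5%, 17%, 32.5%, 33.4%, 39.9%, 39.8% and 42.4%, and 10.9% of genes fell at 5 d, after 6.22%, 7.53%, 8.98%, 8.94%, 9.35% and 8.74% at the earlier times. These shares of rising members are near those of all genes. The median of all genes was itself above T0 by 0.07 to 0.37, and TMM factors or quantile normalization lowered it by up to 0.35 or 0.43.

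The other comparisons with T0 depended on which T0 library was used. ACL5 rose by 0.71 at 5 d (adjusted p = 0.03) with both libraries, but without the first its adjusted p was 0.506. SAC51 rose at 2 d, 4 d and 5 d and lost all 3 calls without that library, with adjusted p of 0.613, 0.303 and 0.453. SACL1 rose at 4 d and 5 d and lost both calls in the same way, and BUD2 lost its rise of 0.71 at 6 h (adjusted p = 0.246). TMO5 fell by 0.77 at 5 d (adjusted p = 0.0378), a call that ended without the second T0 library (adjusted p = 0.324). Over the 70 gene and time combinations there were 24 rises and 1 fall with both T0 libraries, 13 and 10 without the first, and 41 and 0 without the second. As given above, 7 of the 10 genes differed between the T0 libraries by over 1.4-fold while the clock genes above were in opposite phases there, and the part of that phase in these results was not tested.

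Between neighbouring mock times none of the 10 genes passed at any of 6 steps in limma. At an unadjusted p under 0.05, LHW and ATHB8 were lower at 12 h than at 6 h, ATHB8 was higher at 4 d than at 3 d, and the other 4 steps had 0. Among all genes 8.93% and 14.8% passed in the steps to 12 h and 24 h, and 0.412%, 1.39%, 1.98% and 0.993% in the later steps. Over the longer interval from 6 h to 5 d in mock, 4 of the 10 fell (BUD2, SACL3, TMO5 and T5L1) beside 13.3% of all genes. The SACL3 and T5L1 calls each ended without 1 library, with adjusted p up to 0.15 (mock 6 h replicate 2) and 0.226 (mock 5 d replicate 1). Over the same interval in NPA, 3 rose and 1 fell, beside 19% and 19.1% of all genes. The test of the difference between these 2 changes passed for 3 genes: 2.12 ± 0.37 for ACL5 (adjusted p = 0.000903), 1.89 ± 0.30 for BUD2 (adjusted p = 0.000338) and -1.13 ± 0.20 for LHW (adjusted p = 0.00115). Only 0.324% of all genes passed with a positive and 6.42% with a negative difference.

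Among 6 further bHLH genes related to TMO5 or to LHW, the members did not move together. AT2G40200 rose with NPA, against the direction of TMO5 and T5L1. It held 3.85 and 3.11 TPM in mock and 27.1 and 27.5 TPM in NPA at 6 h, and 2.73 and 3.51 against 3.73 and 3.3 TPM at 5 d. Its difference was 2.66 ± 0.27 at 6 h (adjusted p = 1.41e-05), 2.04 at 24 h (adjusted p = 3e-04) and 1.18 at 3 d (adjusted p = 0.0124), and it did not pass at 4 d or 5 d. The 3 d call ended without any 1 of its 4 libraries (adjusted p from 0.0693 to 0.109). AT2G41130 did the opposite: it held 9.45 and 11 TPM in mock and 2.73 and 2.12 TPM in NPA at 6 h, and fell by 1.71 ± 0.20 (adjusted p = 6.78e-05). It passed at every time except 3 d, and its 5 d call ended without mock replicate 2 or NPA replicate 1 (adjusted p = 0.0672 and 0.142). AT1G64625, which the annotation also calls LONESOME HIGHWAY LIKE 3, fell by 1.35 at 6 h from 1.83 and 2.84 TPM to 0.28 and 0.3 TPM (adjusted p = 0.00143). Over the mean of all times 1 of the 6 rose and 4 fell, while 30.6% of all tested genes fell, with AT3G56770 at -0.59 and AT2G31280 at -0.30.

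**Figure D4:**
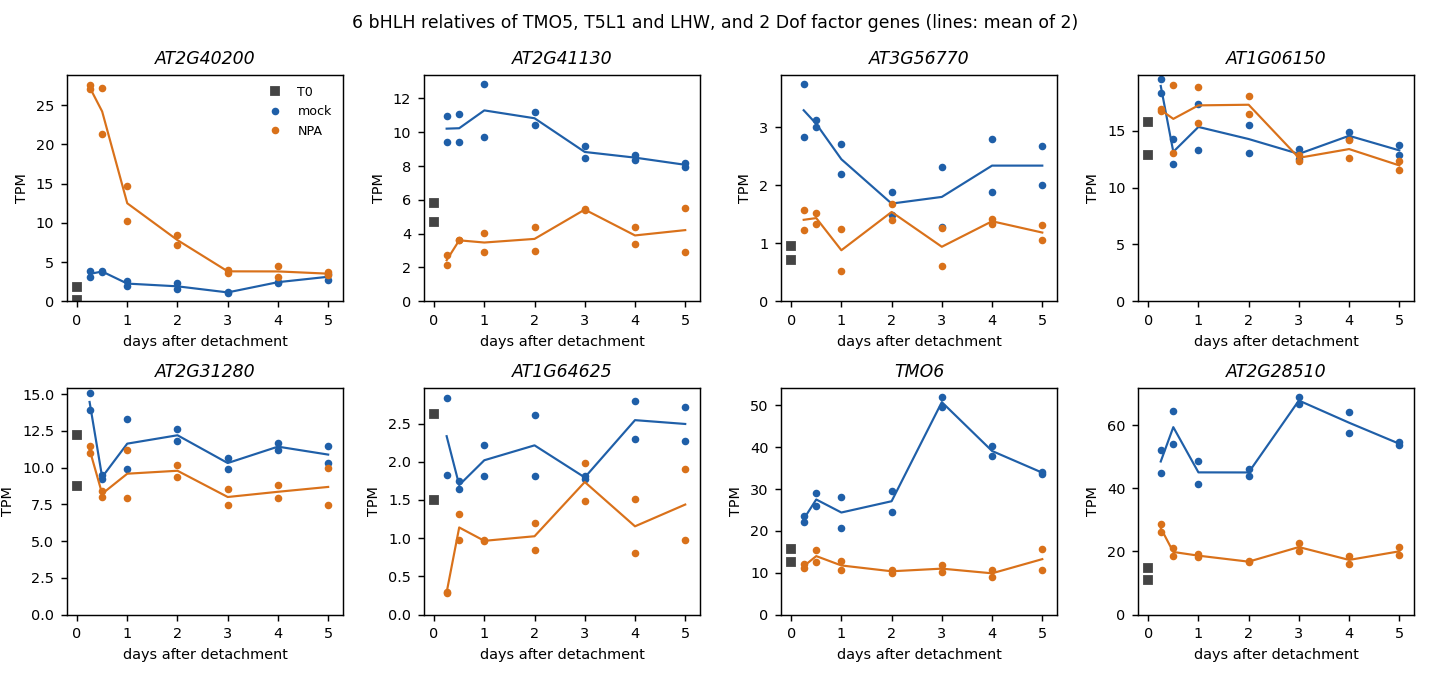
RNA level in TPM (vertical axes, linear, from 0) against days after detachment for 6 bHLH relatives of TMO5, T5L1 and LHW and for the Dof factor genes TMO6 and AT2G28510. Points are libraries, lines join the means of 2, squares are T0, blue is mock and orange is NPA. AT2G40200 is high in NPA at 6 h (27.1 and 27.5 TPM) and near mock at 5 d, while TMO6 and AT2G28510 stay low in NPA.

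Of 7 genes listed as outputs of the TMO5 and LHW dimer or of its cytokinin step, 5 passed the filter, and AHP6 and LOG3 did not. AT2G28510, which encodes a Dof-type zinc finger factor, held 44.8 and 52.3 TPM in mock and 28.6 and 26.2 TPM in NPA at 6 h, and 53.7 and 54.7 against 18.8 and 21.3 TPM at 5 d. It fell by 0.80 ± 0.13 at 6 h (adjusted p = 0.00215, and 0.0612 without mock 6 h replicate 2) and by 1.39 at 5 d (adjusted p = 5.83e-07). TMO6, another Dof factor of vascular cells and an auxin target, held 22.1 and 23.5 TPM in mock and 11.1 and 12.1 TPM in NPA at 6 h, and fell by 0.92 ± 0.17 (adjusted p = 0.00493, and 0.0732 without mock replicate 2 or 0.0789 without NPA replicate 1). At 3 d it held 52 and 49.5 against 11.8 and 10.2 TPM, a fall of 2.12 (adjusted p = 3.65e-07). Both Dof genes passed at all 7 times and their pairs did not overlap. LOG4, a cytokinin-activating enzyme gene directly controlled by these dimers in roots, was at most 2.02 TPM in all libraries and fell by 0.43 in the mean over times (adjusted p between 8.38e-05 and 0.00498 over the alternatives). In all 4 of the 5 fell in that mean, beside 30.6% of all tested genes.

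Among 11 other HD-ZIP III genes and genes linked to them, 10 passed the filter. Of these, 3 fell at 6 h (0.683% of all tested genes fell then), and all 3 encode small regulators. IAA30 and IAA20, Aux/IAA proteins of vascular cells, were at 3.32 and 3.15 and at 2.72 and 1.99 TPM in mock, and at 0.1 and 0 and at 0.16 and 0.11 TPM in NPA. IAA30 fell by 2.01 ± 0.24 (adjusted p = 6.44e-05) and IAA20 by 1.56 ± 0.23 (adjusted p = 0.000731). ZPR1, a small leucine zipper protein that inhibits HD-ZIP III factors, fell by 0.84 (adjusted p = 0.0155, and 0.207 without mock replicate 2 or 0.256 without NPA replicate 1). At 6 h none of the other 7 passed, and at 5 d 9 of the 10 fell, when 15.1% of all tested genes fell, among them PHB by 1.21 (adjusted p = 0.000285), REV by 0.94 and MP by 1.01 (adjusted p = 6e-04).

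In the rest of polyamine metabolism the count of falling genes at 5 d was near that of all genes. Of 15 genes for the synthesis of putrescine, spermidine and spermine and for polyamine oxidation, 1 fell at 6 h and 2 fell at 5 d, with 0 rising at either time, beside 0.683% and 15.1% of all tested genes falling. PAO4, a polyamine oxidase, was at 48.4 and 45.3 TPM in mock and 32.7 and 36.6 TPM in NPA at 6 h, a fall of 0.43 (adjusted p = 0.0472) that 8 of 14 alternatives ended, among them leaving out any 1 of the 4 libraries (adjusted p from 0.0759 to 0.51). At 5 d it was at 38.4 and 41.6 against 22.2 and 19.8 TPM, a fall of 0.90 ± 0.10 (adjusted p = 4.8e-06). PAO5, the oxidase that acts on thermospermine, fell by 0.61 at 5 d (adjusted p = 0.0263), a call that ended under TMM factors (adjusted p = 0.141) and without mock replicate 2 (0.395) or NPA replicate 2 (0.184). The list's median difference was 0.10 at 6 h and -0.30 at 5 d. The 3 ribosomal genes found as suppressors of acl5 (RPL10A, RACK1A and AT3G09630) passed at 0 of 3 at 6 h and all fell at 5 d (15.1% of all tested genes), with a median of -0.70. Under TMM factors none of these 3 falls passed (adjusted p from 0.067 to 0.139).

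Vascular marker lists differed in when and whether they fell with NPA, and their part in these results was not tested. Among all tested genes 0.683% fell at 6 h, 3.27% at 2 d, 9.3% at 4 d and 15.1% at 5 d. Of 4 procambium and cambium markers (WOX4, PXY, HCA2 and CVP2) 1 fell at 6 h, WOX4 from 9.88 and 8.82 TPM to 3.78 and 2.13 TPM (-1.42 ± 0.21, adjusted p = 0.000565), and all 4 fell at 5 d. The 5 d call of WOX4 ended without any 1 of its 4 libraries (adjusted p from 0.0808 to 0.124). Their summed level was 32.7 to 63.3 TPM in mock, 23.6 to 41.8 TPM in NPA and 22.1 to 27.3 TPM at T0, and none of the 4 was at 0 in any library. Of 7 xylem vessel markers (VND6, VND7, XCP1, XCP2, CESA4, CESA7 and CESA8) 0 fell at 6 h, 6 fell at 2 d and all 7 at 5 d. Their summed level at 6 h was 144 and 151 TPM in mock and 142 and 100 TPM in NPA, and 1 of the NPA libraries was close to mock. At 5 d it was 79.1 and 106 TPM against 9.35 and 24.1 TPM. Phloem markers (APL, SUC2 and SEOR1) summed to 100 to 194 TPM in mock and 96.2 to 182 TPM in NPA, and epidermal markers (ATML1, PDF1 and FDH) to 77.7 to 182 and 77.3 to 162 TPM. Of the phloem markers SEOR1, a sieve element protein gene, fell at 4 d from 45 and 39.5 TPM to 12.1 and 15.3 TPM (-1.56, adjusted p = 0.000132) and at 5 d (-1.03, adjusted p = 0.00478, and 0.0899 without mock replicate 2 or 0.0978 without NPA replicate 1). Of the epidermal markers PDF1 fell at 5 d (-2.28, adjusted p = 0.0205, and 0.364 without mock replicate 2 or 0.156 without NPA replicate 1), and at the other times 0 of 3 passed in either list. Mesophyll markers summed to 34900 to 57000 TPM in NPA, and 0 of 4 passed at any single time. Root endodermis markers (CASP1, MYB36 and SCR) summed to 7.7 to 23.1 TPM in mock and 8.78 to 22.2 TPM in NPA, with up to 2 of the 3 at 0 in a library. Of these, CASP1 and MYB36 fell at 5 d, and MYB36 also at 4 d (-1.47, limma adjusted p = 3.14e-07). At 5 d MYB36 averaged 7.9 TPM in mock and 0.43 TPM in NPA, and SCR 12.5 and 11.8 TPM.

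**Figure D5:**
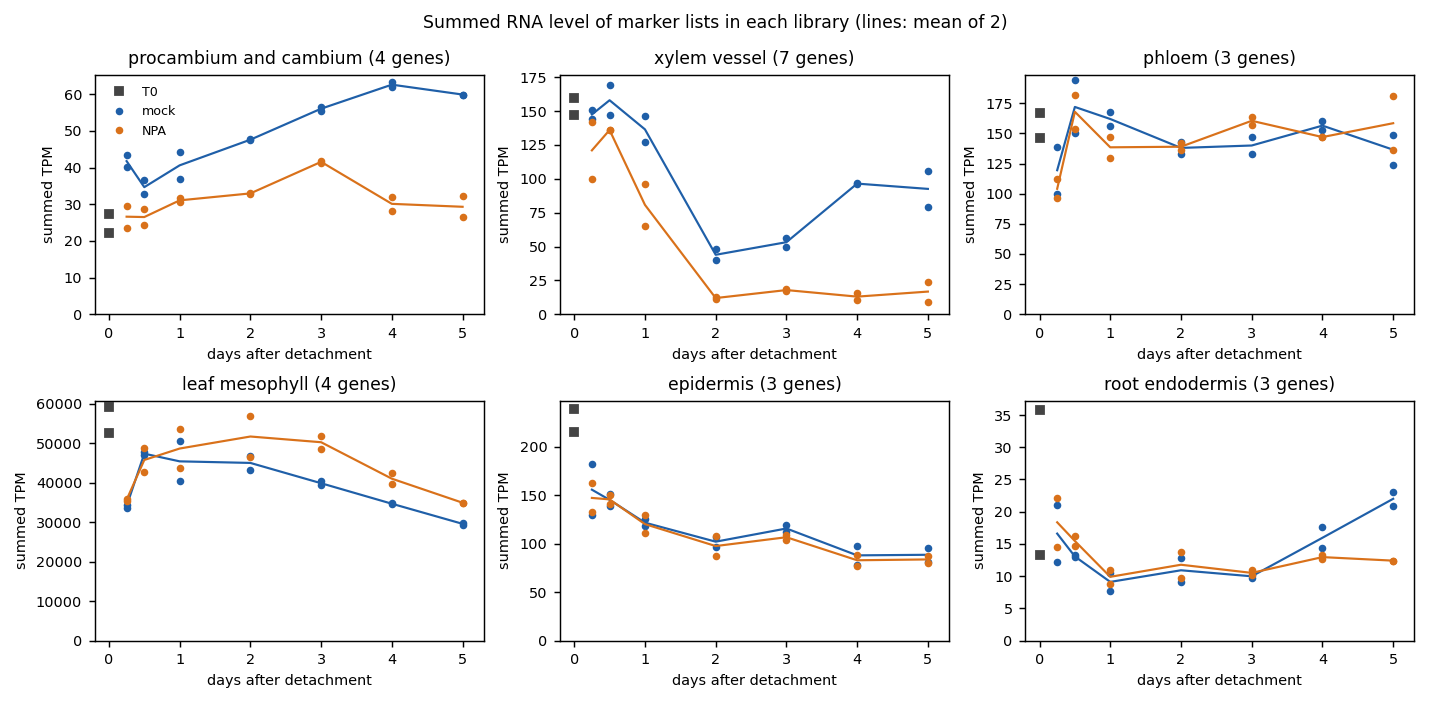
Summed TPM of 6 marker lists (vertical axes, linear, from 0) against days after detachment, with every library as a point and lines joining the means of 2 libraries. Squares are T0, blue is mock and orange is NPA. The procambium and cambium sum is lower in NPA at every time, and the xylem sum is low in both conditions at 2 d (39.9 and 47.9 TPM in mock, 11.3 and 12.6 TPM in NPA) and at 5 d is 79.1 and 106 TPM in mock and 9.35 and 24.1 TPM in NPA.

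As a description of their shared courses, the 10 genes were correlated over the 15 group means of log2(TPM + 1), which share libraries and the T0 pair. ACL5 and BUD2 had an r of 0.898, TMO5 and T5L1 of 0.878, and ACL5 and ATHB8 of 0.821, and LHW had an r of -0.162 with ACL5 and 0.054 with T5L1. Among other tested genes with a symbol and a highest group mean of at least 5 TPM, the courses most like ACL5 were those of WAT1 (r = 0.924), a vacuolar auxin transporter needed for secondary walls, and IAA13 (0.894). T5L1 was most like NHX4 (0.958), GH3.17 (0.953), an enzyme that conjugates auxin to glutamate, and LAX2 (0.941), an auxin importer of veins. TMO5 was most like MYB55 (0.956), ATMYC1 (0.922) and EXPB3 (0.899). ATHB8 was most like PAP2 (AT4G29080), an Aux/IAA gene also called IAA27 (0.964), XYP2, a xylogen protein gene (0.926), and GDU2 (0.926). BUD2 was most like ACL5, LAX2 (0.852) and WAT1 (0.838). LHW was most like WNK8 (0.936), ABCG1 (0.928) and XLG1 (0.904), and SAC51 most like ABIL3 (0.927), PHV (0.926) and WOX11 (0.924). SACL1 was most like ATUBC2-1 (0.951), COAB (0.951) and UTR5 (0.948). The courses nearest to SACL2 were those of ATAUX2-11 (0.871), SGR5 (0.838) and IAA7 (0.834), and those nearest to SACL3 were TSBtype2 (0.801), LOG8 (0.787) and FBH4 (0.786).

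In the annotation ACL5 lies on chromosome 5 from 6588771 to 6591363 and shares 196 bases with AT5G19520, and SAC51 lies on chromosome 5 from 25730335 to 25733313 and shares 24 bases with AT5G64330. The strandedness of the libraries is not given in the sources used here, so reads in the shared bases cannot be assigned to one gene. AT5G19520 was at most 1.46 TPM in all libraries. AT5G64330 had a mean NPA difference of 0.01 (adjusted p = 0.955). ATHB8 lies on chromosome 4 from 15863339 to 15868650, TMO5 on chromosome 3 from 9369499 to 9371487, T5L1 on chromosome 1 from 25861094 to 25863534 and LHW on chromosome 2 from 11650358 to 11654143. BUD2 lies on chromosome 5 from 6311725 to 6313372. These 5 and the genes SACL1, SACL2 and SACL3 overlap no other annotated gene.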

How the data were processed

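The authors deposited TPM values for each gene in 1 table for mock and 1 for NPA. Per the submitters' processing notes, the tools were STAR 2.7.2b, RSEM 1.3.2 and Trim Galore 0.5.0, with TAIR10 as genome build; order, parameters and strandedness are not given in the sources used here. The T0 columns stand in both tables with identical values and were counted once, leaving 30 libraries. TPM has a fixed total, so depth is unknown and no counting error can be given.

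Here, values were taken as log2(TPM + 1) with no further scaling, and genes with at least 1 TPM in at least 2 libraries were kept (20654). In R 4.3.3, limma 3.58.1 was used with its trended variance prior: 1 mean per group was fitted to all libraries (15 residual degrees of freedom, prior 2.33), with two-sided tests and Benjamini-Hochberg adjustment within each of 25 comparisons. The script was tested on simulated data. Loci, promoters and symbols came from the RefSeq annotation TAIR10.1, which matched 37390 genes. Names such as SACL1, T5L1 and TMO5 follow the locus where the annotation has another symbol or none.

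The 10 genes, the pathway and marker lists and the rule for named genes were chosen with earlier results of these data known. Named were the 10 genes, for each the 3 genes of most similar course, and up to 4 called members of each list, with further members chosen after their values were seen, for contrast. Alternatives were no filter or a stricter one (mean TPM of 5 or more), other pseudocounts (0.1, 5), quantile normalization, TMM factors from the TPM values, TPM rescaled after leaving out organelle genes, no variance trend, only the libraries compared, a replicate block, and each library left out in turn. Where that leaves 1 library in a group, it is assumed to vary like the others. Each library was left out only for the comparisons that hold it. All other comparisons kept their value from all libraries, although the spread is estimated from all of them. Replicate numbers were not used as pairs, since deviations of mock and NPA libraries of the same number correlated across genes with r from -0.58 to 0.33 over the 7 times.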

Additional observations from a re-analysis of the deposited data

Results flagged for a closer look

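In 3 of the 10 genes the effect of NPA differed between times, by a test of that difference itself. For ACL5 the 7 differences from mock varied with an adjusted p of 0.00089 (moderated F test in limma), and the change from 6 h to 5 d was 2.12 higher in NPA than in mock on the log2 scale. For BUD2 the adjusted p was 0.00277 and the change was 1.89 higher in NPA. For LHW the adjusted p was 0.00478 and the change was -1.13, lower in NPA. ACL5 and BUD2 thus started far below mock and came nearer to it. ACL5 was nearest at 3 d (mean 21.2 TPM in NPA and 24.1 in mock) and further away at 5 d (18.7 and 33.2 TPM). LHW started at or above mock and ended below it. Among all tested genes 5.86% varied in this way.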

How the results depend on the processing

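Over the single-gene differences recomputed, 6488 alternatives left a call or its absence unchanged, 421 lost a call and 66 gained one. Genes of the lists entered this tally only for NPA differences called in the main fit, so they could lose a call but not gain one. Signs were compared only where at least 1 of the 2 fits passed. There 1 changed, RBCS1A in the mean over times under quantile normalization (-0.061, adjusted p = 0.588). Differences that passed in neither fit could change sign, as for ACL5 at 12 h against T0 (0.074, and -0.418 without T0 replicate 1). Of the 23 calls of NPA against mock, 9 held under every alternative that kept the gene, except the fit to the compared libraries alone. They were ACL5 and BUD2 at 6 h, T5L1 at 6 h and 24 h, ATHB8 at 6 h, 4 d and 5 d, and LHW at 4 d and 5 d. BUD2 was not tested under the stricter filter, which removed it. With the fit to the compared libraries alone counted too, 2 of the 23 calls held throughout. That smaller fit has few residual degrees of freedom. Its total was 9 calls against 23 for NPA against mock and 2 against 25 for mock against T0. It was 7 against 11 for 5 d against 6 h and 2 against 0 for the mock steps. Over all genes it gave 0 against 323 calls at 6 h and 1260 against 3540 at 5 d. A mean TPM of at least 5 removed BUD2 and SACL2, and over all genes left 137 calls at 6 h and 1806 at 5 d. With each library left out in turn the calls ranged from 20 to 24 for NPA against mock, 21 to 41 for mock against T0 (41 without T0 replicate 2), 7 to 11 for 5 d against 6 h (7 without mock 5 d replicate 1), 7 to 8 for the mean, 3 for the variation over time and 0 for the steps. In these counts, comparisons that do not hold the library left out kept their value from all libraries. The part of a left-out library in their shared spread was therefore not tested. The mean fall of LHW was lost under TMM factors (adjusted p = 0.174), which moved the median NPA difference of all genes by up to 0.17. Of the polyamine genes 4 rose and 1 fell in the mean over times under TMM factors, against 1 and 2 without. A replicate block left the counts at 25, 23, 0, 7, 3 and 11. It ended the TMO5 call at 6 h (adjusted p = 0.055) and added one for T5L1 at 3 d (adjusted p = 0.0477). A block by replicate number cannot take up the clock difference between libraries, whose numbering was opposite in mock and NPA at 6, 12 and 24 h. The causes of these changes were not tested.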
